A study of Rattus norvegicus with 145 samples.

Results

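ENSRNOG00000010867 is a rat gene identifier of the Ensembl annotation, and it is 1 of 32883 identifiers in the deposited tables. It was picked from those tables because its level was lower in knock-in than in wild-type animals in striatum, over the ages, and in cerebellum. The differences between genotypes in these 2 regions are therefore given as descriptions without a test. The sources used here pair no identifier with a gene symbol (0 of 32883 matched the RefSeq gene table), so the product of the gene is not stated and no sequence of it is shown.

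The series profiled RNA from brain tissue of Long Evans rats, either wild type (WT) or heterozygous for a knock-in allele named Q130 (KI), a model of Huntington's disease. Animals of 10, 19 and 24 months gave striatum and cortex, and those of the last 2 ages also gave cerebellum. Each region sampled held 10 KI and 10 WT libraries at 10 and 19 months (5 females and 5 males per genotype), and at 24 months 7 KI libraries (3 females, 4 males) and 4 WT libraries (2 females, 2 males). The submitters added striatum libraries of males at 2 and 6 months, 3 per genotype and age, from an earlier experiment to watch for batch effects. The libraries (63 of striatum, 51 of cortex and 31 of cerebellum) came from 63 animals, of which 51 gave more than 1 region. The animals of 19 months carry another identifier prefix than those of all other ages, so age and that source cannot be told apart for any comparison with 19 months.

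In Huntington's disease a stretch of CAG triplets within the huntingtin gene is longer than normal, and the protein carries a correspondingly long glutamine tract near its start. A knock-in places the expanded repeat in the animal's own gene, so that the mutant protein is made in the cells and amounts that the native promoter sets. The projection neurons of the striatum are the cells most affected in patients, the cortex that projects to them is also affected, and the cerebellum is classically regarded as less involved. In bulk tissue, fewer cells that express a gene and less RNA of that gene per cell cannot be told apart.

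In units of 1000000 estimated reads, library totals ran from 25.6 to 47.3. In every library the genes enriched in the labelled region gave the highest standardised score of the 3 region scores, so no library went against its region label. By their correlation with the other libraries of their region and age, 12 libraries stood apart, and the genotype differences of the ages that hold them are given below with and without them. The level of the edited huntingtin gene was not analysed here, because its identifier is not named in the sources used.

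ENSRNOG00000010867 was a low-abundance transcript in all 3 regions. On the length-scaled (TPM) scale its mean in WT animals of 19 months was 2.08 in striatum, 0.932 in cortex and 0.963 in cerebellum. Of the genes with a level above 0, 38.9% lay below it in striatum, 33.9% in cortex and 33% in cerebellum. Between 17 and 240 reads of a library fell on the gene, so counting error adds to the spread between animals. The level per library is given below as CPM (counts per 1000000 reads, scaled with TMM factors).

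The gene was at its highest in striatum. In WT striatum the level was 5.71 ± 1.02 CPM at 2 months (SD, n = 3), 5.40 ± 0.252 at 6 months (n = 3), 5.02 ± 0.464 at 10 months (n = 10), 5.87 ± 0.781 at 19 months (n = 10) and 4.83 ± 1.12 at 24 months (n = 4). In KI striatum it was 5.04 ± 0.305 CPM at 2 months (n = 3), 4.22 ± 0.454 at 6 months (n = 3), 3.94 ± 0.447 at 10 months (n = 10), 4.57 ± 0.995 at 19 months (n = 10) and 3.32 ± 0.473 at 24 months (n = 7). The KI mean lay below the WT mean at each of the 5 ages, which is part of what the gene was picked on.

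The single striatum libraries overlapped between genotypes at 4 of the 5 ages. At 2 months the 3 WT males had 5.26, 6.87 and 4.99 CPM and the 3 KI males 5.00, 5.36 and 4.75 CPM. Only the WT male at 6.87 CPM stood above all KI males. At 6 months the WT males had 5.13, 5.44 and 5.63 CPM and the KI males 4.00, 3.92 and 4.75 CPM. Here every KI male lay below every WT male, a pattern that 7.1% of the 15377 genes tested showed at that age.

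At 10 months the KI striatum libraries ran from 3.41 to 4.64 CPM (median 3.85) and the WT libraries from 4.26 to 5.83 CPM (median 5.05). All 10 KI libraries were below the WT median, and 8 of 10 WT libraries were above the highest KI library. At 19 months KI libraries ran from 3.45 to 6.30 CPM (median 4.41) and WT libraries from 4.13 to 6.62 CPM (median 6.00), and 9 of 10 KI libraries were below the WT median. At 24 months KI libraries ran from 2.59 to 3.95 CPM (median 3.35), while the 4 WT libraries had 6.12, 3.50, 4.42 and 5.26 CPM. All 7 KI libraries of 24 months were below the WT median, and 3 of 4 WT libraries were above the highest KI library.

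**Figure D1:**
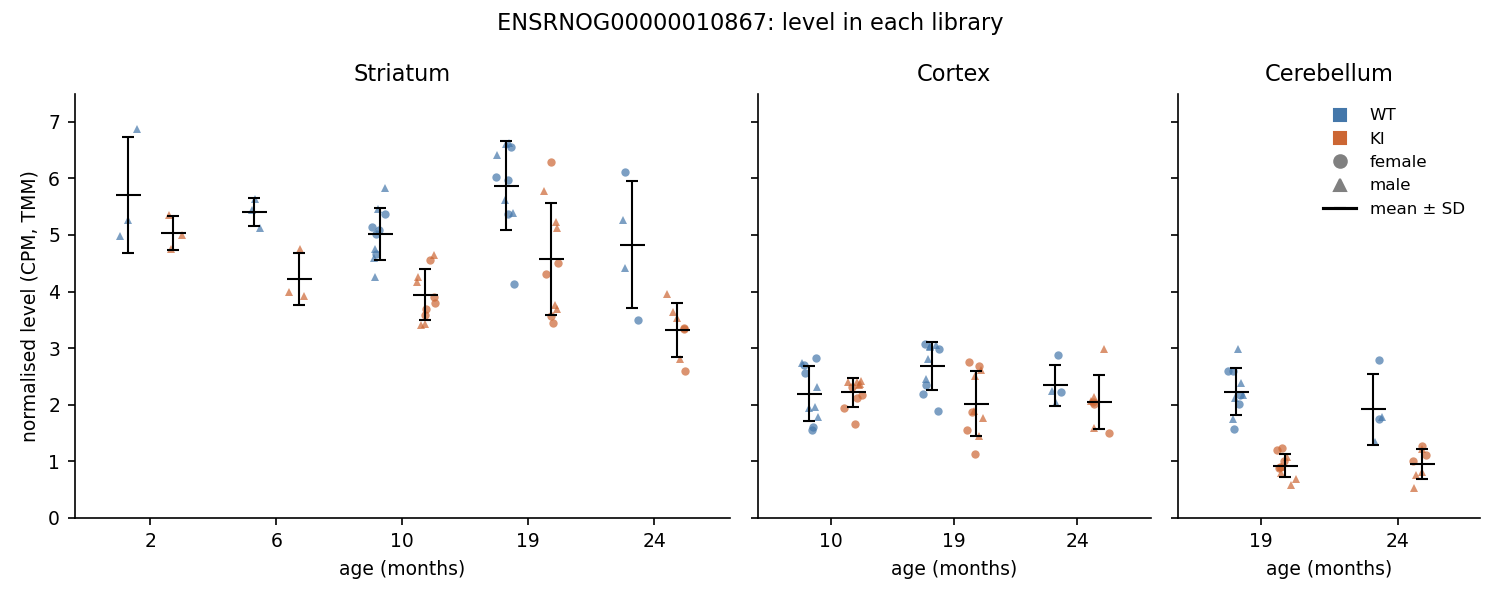
Level of ENSRNOG00000010867 in each library in CPM (y axis) by age in months (x axis) and region; circles are females, triangles males, and bars give the mean and SD of each group. The KI cerebellum libraries (0.522 to 1.27 CPM) lie below all WT cerebellum libraries (1.33 to 2.98 CPM), whereas the genotypes overlap in cortex and, apart from 6 months, in striatum.

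On the log2 scale the KI level in striatum differed from WT by -0.18 (SE 0.144) at 2 months, -0.35 (SE 0.156) at 6 months, -0.35 (SE 0.0758) at 10 months, -0.35 (SE 0.118) at 19 months and -0.56 (SE 0.176) at 24 months, as estimated with edgeR. The mean of these differences over 10, 19 and 24 months was -0.42 (SE 0.0674), which places KI at 74.8% of WT. The difference at 2 months depended on 1 library and was -0.03 without the WT male at 6.87 CPM. It was -0.23 without the KI male at 5.36 CPM, whose library is among those of outlying correlation. The size of the difference at 24 months leaned on the WT female at 6.12 CPM, without which it was -0.38. On log2 of the length-scaled value plus 1 it was -0.26, and that of 6 months -0.19.

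Some libraries of KI striatum at 24 months held more of the cortex-enriched genes than any WT library, with scores of 1.92, 1.41 and 1.06. The other KI libraries lay inside the WT range. The score, which is the mean log2 level of these genes, ran from 0.624 to 1.92 in KI and from 0.499 to 0.774 in WT. With this score added to the model the difference of ENSRNOG00000010867 at 24 months was -0.58, and without the 2 KI libraries of the highest score it was also -0.58. At 19 months the score ran from 0.301 to 1.62 in KI and from 0.252 to 0.823 in WT, and the difference with the covariate was -0.33. Without the libraries of outlying correlation the striatal differences were -0.36, -0.44 and -0.52 at 10, 19 and 24 months.

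The gene was lowest in KI cerebellum, where the ratio of KI to WT was also farthest from 1. At 19 months WT animals had 2.23 ± 0.420 CPM (SD, n = 10) and KI animals 0.924 ± 0.208 CPM (n = 10). At 24 months WT animals had 1.92 ± 0.622 CPM (n = 4) and KI animals 0.954 ± 0.270 CPM (n = 7). In reads, the group means were 74.3 for WT and 31.7 for KI at 19 months, and 63.8 for WT and 32.9 for KI at 24 months.

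At 19 months the KI cerebellum libraries ran from 0.587 to 1.23 CPM (median 0.892) and the WT libraries from 1.57 to 2.98 CPM (median 2.17). At 24 months KI libraries ran from 0.522 to 1.27 CPM (median 0.999), and the 4 WT libraries had 1.75, 2.80, 1.33 and 1.79 CPM. Every KI library was below every WT library at both ages. Such complete separation with KI low was found for 0.199% of the 15101 genes tested at 19 months and 1.54% of the 15381 tested at 24 months. These shares are given as background, since the gene was selected on this contrast.

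The log2 difference between KI and WT cerebellum was -1.27 (SE 0.138) at 19 months and -0.97 (SE 0.225) at 24 months. Their mean of -1.13 (SE 0.126) places KI at 45.6% of WT. Without the libraries of outlying correlation the differences were -1.19 and -0.89, and with the cortex score in the model they were -1.18 and -1.07. On log2 of the length-scaled value plus 1, an added constant larger than most cerebellar levels of the gene, the differences shrank to -0.49 and -0.35, and with 0.1 added they were -1.10 and -0.81. The lowest library of the series, a KI cerebellum of 24 months at 0.522 CPM, rested on 18 reads, for which the exact 95% Poisson interval is 10.7 to 28.5 reads and covers counting error only.

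**Figure D2:**
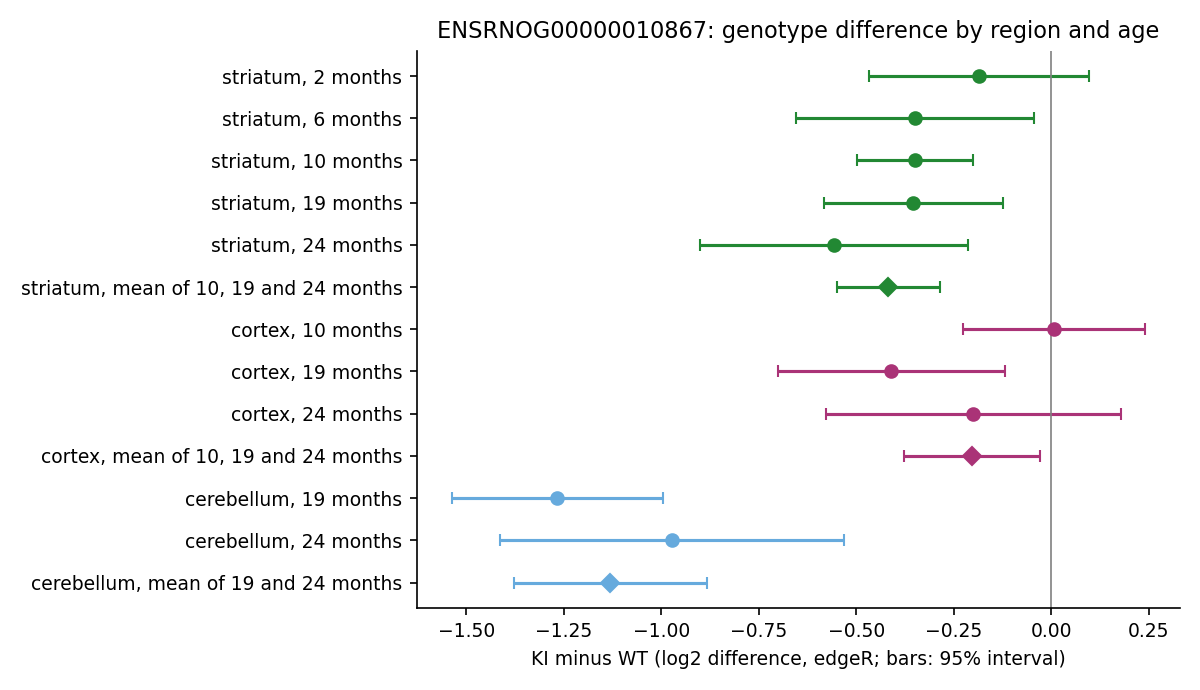
Difference of ENSRNOG00000010867 between KI and WT on the log2 scale (x axis) for each region and age (y axis); points are edgeR estimates, diamonds are means over ages, and bars are 95% intervals. Striatal differences lie between -0.56 and -0.18, cerebellar ones between -1.27 and -0.97, and the 3 cortical ages between -0.41 and 0.01. The striatum and cerebellum values are those the gene was picked on.

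Cortex was not used to pick the gene, although its animals are those that also gave the other regions. After adjustment over all genes tested, the genotype difference did not pass there at any age. The WT level was 2.20 ± 0.492 CPM at 10 months (SD, n = 10), 2.69 ± 0.428 at 19 months (n = 10) and 2.34 ± 0.365 at 24 months (n = 4). The KI level was 2.21 ± 0.250 CPM at 10 months (n = 10), 2.02 ± 0.579 at 19 months (n = 10) and 2.05 ± 0.486 at 24 months (n = 7).

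The cortical libraries of the genotypes overlapped at each of the 3 ages. At 10 months KI libraries ran from 1.65 to 2.42 CPM (median 2.33) and WT libraries from 1.54 to 2.83 CPM (median 2.13), with 3 of 10 KI libraries below the WT median. At 19 months KI libraries ran from 1.12 to 2.75 CPM (median 1.89) and WT libraries from 1.90 to 3.07 CPM (median 2.89). All 10 KI libraries of that age were below the WT median, and 6 of 10 were below the lowest WT library. At 24 months KI libraries ran from 1.50 to 2.99 CPM (median 2.04), against 2.87, 2.23, 2.24 and 2.03 CPM in the 4 WT libraries.

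At 10 months the cortical log2 difference was 0.01 (SE 0.119, 95% interval -0.226 to 0.24), with an edgeR adjusted p of 0.987 over all genes. At 19 months it was -0.41 (SE 0.148, 95% interval -0.701 to -0.12), with an unadjusted p of 0.0111 and an adjusted p of 0.748 in edgeR. At 24 months it was -0.20 (SE 0.193, 95% interval -0.579 to 0.178), with an edgeR adjusted p of 0.768. Over the 3 ages the mean difference was -0.20 (SE 0.089), with an unadjusted p of 0.0264 and an adjusted p of 1 in edgeR. The difference between regions in the genotype effect was not tested, since the striatal and cerebellar values chose the gene.

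Few genes of any kind were called between genotypes in cortex. In edgeR 0% of genes passed an adjusted p under 0.05 at 10 months, 0% at 19 months and 0% at 24 months, and 0.00621% (1 of 16108) passed for the mean over ages. At an unadjusted p under 0.05 the numbers were 1013, 813, 772 and 565 genes, and DESeq2 called 16, 0, 4 and 3 genes. Without the libraries of outlying correlation the cortical differences of ENSRNOG00000010867 were 0.04, -0.45 and -0.31. The value at 24 months was -0.07 when the WT female at 2.87 CPM was left out.

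The genotype difference in cortex did not pass a test for a change with age or sex. From 10 to 19 months it changed by -0.42 on the log2 scale (SE 0.189), with an unadjusted p of 0.0328 and an adjusted p of 1 in edgeR. From 19 to 24 months it changed by 0.20 (SE 0.232, edgeR adjusted p = 0.682), and over the ages the value of KI minus WT was higher in males than in females by 0.22 (SE 0.183, edgeR adjusted p = 1). In each of these 3 edgeR tests 0% of genes were called, with 481, 1601 and 547 genes at an unadjusted p under 0.05 and 1, 0 and 0 genes called by DESeq2. The change from 19 to 24 months was 0.33 without the WT female at 2.87 CPM and 0.12 without the WT male at 2.03 CPM.

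Within WT animals the striatum held more of the transcript than the other regions. Regions were compared within animals, with the animal as a block, and no p is given, because the libraries of striatum and cerebellum took part in the choice of the gene. At 19 months WT striatum exceeded WT cortex by 1.16 on the log2 scale (SE 0.0891) and WT cerebellum by 1.44 (SE 0.0904). At 24 months the same differences were 1.04 (SE 0.218) and 1.36 (SE 0.22). On length-scaled values plus 0.1 they were 1.09 and 1.04 at 19 months and 0.81 and 0.87 at 24 months, and with 1 added 0.67, 0.65, 0.47 and 0.50. Region differences were common among all genes, with 74.4% called for striatum against cortex and 81.3% for striatum against cerebellum at 19 months, and 60.5% and 69.1% at 24 months.

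The order of WT cortex and WT cerebellum depended on the scale. On CPM, cerebellum was below cortex by -0.29 at 19 months (SE 0.092, where 78.6% of genes were called) and by -0.33 at 24 months (SE 0.224, where 62.6% were called). On the length-scaled values the difference at 19 months was 0.05 with 0.1 added and 0.02 with 1 added, so that it changed sign. Within animals the length-scaled level of WT cerebellum was above that of cortex in 5 of 10 animals at 19 months and in 2 of 4 at 24 months.

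In KI animals the order was striatum, cortex, cerebellum. KI striatum exceeded KI cortex by 1.21 (SE 0.141) and KI cerebellum by 2.32 (SE 0.15) on the log2 scale at 19 months, and by 0.73 (SE 0.175) and 1.82 (SE 0.183) at 24 months. KI cerebellum differed from KI cortex by -1.12 (SE 0.151) at 19 months and -1.10 (SE 0.183) at 24 months. On length-scaled values the last 2 differences kept their sign and were -0.69 and -0.67 with 0.1 added and -0.29 and -0.27 with 1 added. The low KI levels in striatum and cerebellum are those the gene was picked for, so no p is given here either. Among all genes, edgeR called 68.8% for striatum against cortex, 72.8% for cerebellum against cortex and 77.7% for striatum against cerebellum in KI at 19 months, and 66.4%, 68% and 73.3% at 24 months.

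The same order was seen animal by animal on the length-scaled level. Striatum was above cortex and above cerebellum in 10 of 10 WT and 10 of 10 KI animals at 19 months, and in 4 of 4 WT and 7 of 7 KI animals at 24 months. Cerebellum was below cortex in 10 of 10 KI animals at 19 months and 7 of 7 at 24 months. The median ratio of cerebellum to cortex was 0.591 in KI and 1.02 in WT at 19 months, and 0.687 in KI and 0.868 in WT at 24 months. The median ratio of striatum to cortex was 2.37 in KI and 2.06 in WT at 19 months, and 1.58 in KI and 2.02 in WT at 24 months.

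**Figure D3:**
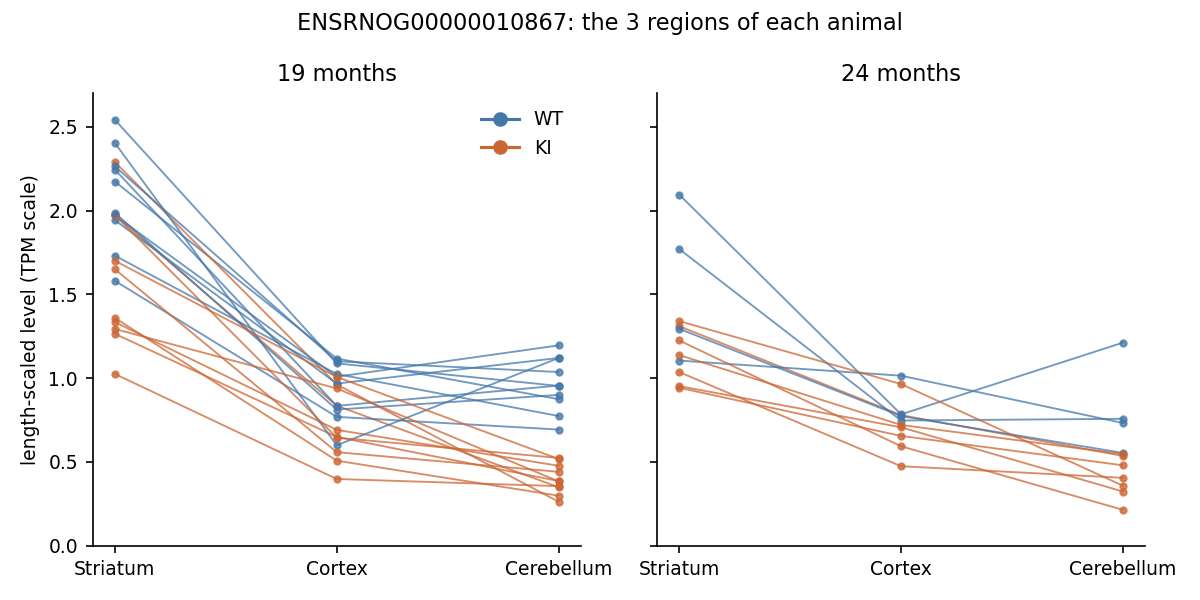
Length-scaled (TPM-scale) level of ENSRNOG00000010867 (y axis) in the 3 regions (x axis) of each animal at 19 and 24 months; each line is 1 animal. Lines of KI animals fall from cortex to cerebellum in 17 animals, the 10 of 19 months and the 7 of 24 months, while lines of WT animals go either way.

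Levels in different regions of the same animals were set against each other in 8 relations, each over 10 animals of 1 genotype and age, and none passed the adjustment. All of these relations include striatum or cerebellum, whose libraries took part in the choice of the gene, so the p-values are descriptions only. Striatum and cerebellum of WT animals at 19 months gave r = 0.73 (permutation p = 0.0143, adjusted p = 0.114 over 8 relations) and rho = 0.539 (permutation p = 0.113), and r was 0.797 without the 2 animals farthest from the median. On length-scaled values r was 0.58 (permutation p = 0.0775, adjusted p = 0.31) and rho 0.333 (permutation p = 0.345), and r was 0.403 without the 2 animals farthest from the median. The same WT female was lowest in both regions, at 4.13 CPM in striatum and 1.57 CPM in cerebellum, and had 2.19 CPM in cortex. In KI animals of 19 months the same pair of regions gave r = 0.123 (permutation p = 0.735, adjusted p = 0.968), and the male with the lowest cerebellum, 0.587 CPM, had 5.77 CPM in striatum. The other 6 relations had r from -0.0265 to 0.374 and an adjusted permutation p of 0.968 on log2 CPM. On length-scaled values striatum and cortex of KI animals gave r = 0.59 at 19 months (permutation p = 0.0739, adjusted p = 0.31). Without the 2 animals farthest from the median that r was 0.155. At 10 months the same pair gave r = 0.462 (permutation p = 0.182, adjusted p = 0.485), and the rest of the 6 ran from -0.000961 to 0.104.

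Age comparisons within a genotype did not pass the test in any region. Striatum and cerebellum libraries took part in the choice of the gene, so their p-values for age are descriptions only. In WT striatum the log2 change was -0.07 from 2 to 6 months, 0.24 from 10 to 19 months and -0.04 from 10 to 24 months, with edgeR adjusted p-values of 0.92, 0.105 and 0.972 where 0.318%, 5.13% and 0.0255% of genes were called. In WT cortex it was 0.29 from 10 to 19 months and 0.09 from 10 to 24 months (edgeR adjusted p = 0.196 and 0.805, with 7.09% and 0.683% of genes called). In WT cerebellum it was -0.21 from 19 to 24 months (edgeR adjusted p = 0.624, 1.23% of genes called). The small WT changes from 2 to 6 and from 10 to 24 months changed sign when single libraries were left out.

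In KI striatum the log2 change was -0.24 from 2 to 6 months, 0.23 from 10 to 19 months and -0.25 from 10 to 24 months (SE 0.136, 0.116 and 0.105). The edgeR adjusted p-values were 0.33, 0.4 and 0.139, where 4.62%, 0.837% and 9.87% of genes were called. In KI cortex the change was -0.13 both from 10 to 19 and from 10 to 24 months (edgeR adjusted p = 0.636 and 0.554, with 9.87% and 5.93% of genes called). In KI cerebellum it was 0.07 from 19 to 24 months (edgeR adjusted p = 0.9, 0.975% of genes called). Both genotypes had their highest striatal mean among 10, 19 and 24 months at 19 months, the age whose animals carry the other identifier prefix.

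Sex did not pass the test either. The p-values of striatum and cerebellum are again descriptions only, since these libraries took part in the choice of the gene. The log2 difference of males from females was 0.05 in WT striatum, 0.02 in WT cortex and -0.11 in WT cerebellum (edgeR adjusted p = 1, 0.97 and 0.86). Of all genes 0.0786%, 0.112% and 0.0861% were called in these comparisons. In KI animals striatum had a difference of 0.09, cortex 0.16 and cerebellum -0.39 (edgeR adjusted p = 0.898, 0.945 and 0.933, with 0.0913%, 0.124% and 0.0855% of genes called).

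The sex difference in KI cerebellum had an SE of 0.169 and an unadjusted p of 0.0321 in edgeR. That p is a description only, since these libraries took part in the choice of the gene. In the same comparison 808 of 15204 genes had an unadjusted p under 0.05. The means of KI cerebellum at 19 months were 1.04 ± 0.164 CPM in 5 females and 0.805 ± 0.188 CPM in 5 males. At 24 months they were 1.12 ± 0.136 CPM in 3 females and 0.827 ± 0.289 CPM in 4 males. WT cerebellum had 2.19 ± 0.428 CPM in 5 females and 2.28 ± 0.456 CPM in 5 males at 19 months. At 24 months the 2 WT females had 1.75 and 2.80 CPM and the 2 WT males 1.33 and 1.79 CPM, so that the mean was higher in females, as in KI. Both sexes of KI cerebellum had means below both sexes of WT at both ages.

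The spread between animals was close to counting error in several groups. In striatum at 10 months WT libraries had an SD of 0.464 CPM and KI libraries one of 0.447 CPM, where counting alone gives 0.421 and 0.370 CPM. In striatum at 19 months the SDs were 0.781 CPM for WT and 0.995 CPM for KI, above the counting values of 0.443 and 0.388 CPM. In KI cerebellum it was 0.208 CPM at 19 months and 0.270 CPM at 24 months, against counting values of 0.164 and 0.165 CPM. The 5 KI males of 10 months varied by only 0.032 CPM in cortex (SD around 2.39 CPM), less than the 0.258 CPM that counting gives for that group.

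The pattern of the gene over region, age and genotype was compared with those of 12901 other genes with a mean log2 CPM of at least 1. Over the 20 means of region, age and genotype the most alike were ENSRNOG00000052869 (Pearson r = 0.96) and ENSRNOG00000019486 (r = 0.955). These values describe the likeness of means that share libraries and that are set mostly by region, and they carry no p. ENSRNOG00000052869 also was higher in striatum than in cortex and cerebellum, with 3.50 ± 0.884, 2.45 ± 0.424 and 1.96 ± 0.462 CPM in WT animals of 19 months (SD, n = 10 each).

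The KI cerebellar means of these 2 genes were also below their WT means at both ages. The cerebellar means were among those the 2 genes were picked on, so this is in part a result of the choice. At 19 months ENSRNOG00000052869 had 1.96 ± 0.462 CPM in WT cerebellum and 1.87 ± 0.373 CPM in that of KI (n = 10 each), and at 24 months 2.22 ± 0.434 (n = 4) and 1.59 ± 0.404 CPM (n = 7). ENSRNOG00000019486 had 2.52 ± 0.431 CPM in WT and 1.84 ± 0.488 CPM in KI cerebellum at 19 months (n = 10 each), and 2.49 ± 0.138 (n = 4) and 1.70 ± 0.291 CPM (n = 7) at 24 months. In striatum at 10 months ENSRNOG00000019486 had 5.53 ± 0.488 CPM in WT and 5.89 ± 0.746 CPM in KI, and ENSRNOG00000052869 had 3.57 ± 1.07 and 3.05 ± 0.304 CPM (n = 10 each), where ENSRNOG00000010867 had 5.02 and 3.94 CPM. In striatum at 24 months ENSRNOG00000019486 had 5.17 ± 0.393 CPM in WT (n = 4) and 4.46 ± 0.840 CPM in KI (n = 7). At 2 and 6 months its striatal mean was higher in KI, with 5.41 and 5.52 CPM against 5.10 and 5.08 CPM in WT (n = 3 each). At 19 months it was 4.84 CPM in KI and 4.92 CPM in WT (n = 10 each). The striatal mean of ENSRNOG00000052869 at 19 months was 3.52 CPM in KI and 3.50 CPM in WT (n = 10 each). At 24 months it was 3.04 CPM in KI (n = 7) and 3.175 CPM in WT (n = 4). At 2 and 6 months it was 3.20 and 3.23 CPM in KI, against 3.54 and 3.75 CPM in WT (n = 3 each).

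**Figure D4:**
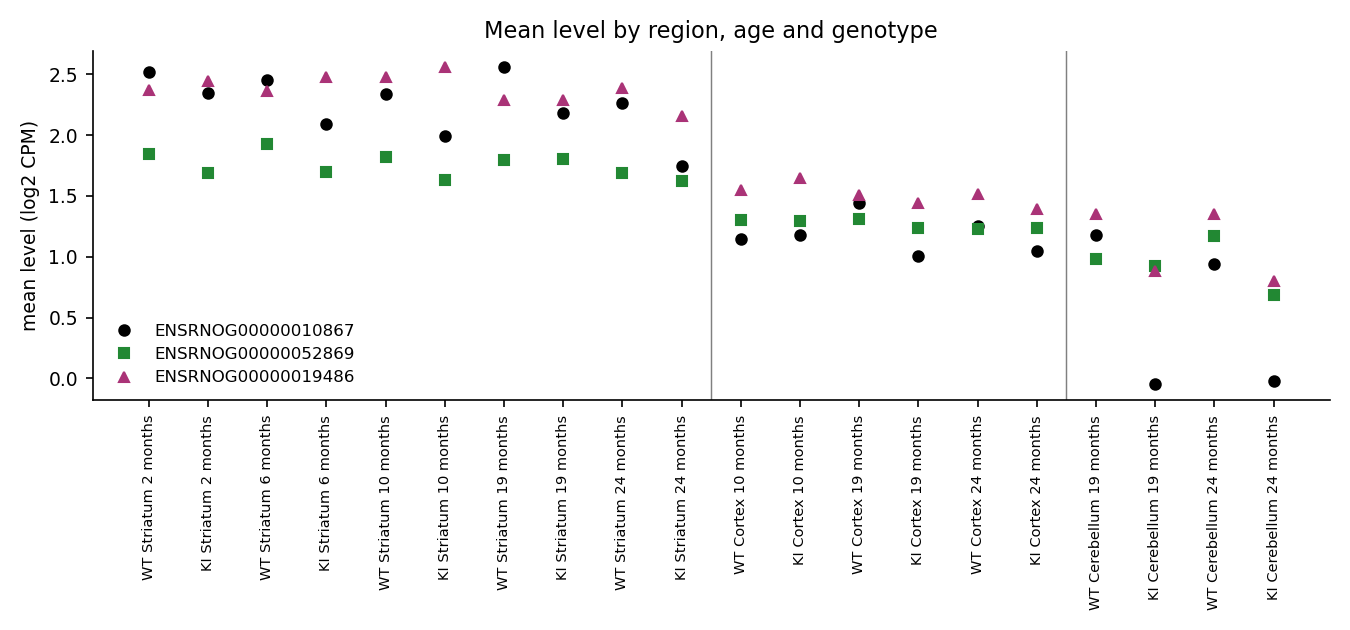
Mean level (log2 CPM, y axis) of ENSRNOG00000010867 and of the 2 genes most like it over the 20 groups of region, age and genotype (x axis, with lines between regions). All 3 are highest in striatum, and in KI cerebellum ENSRNOG00000010867 lies below the other two at both ages.

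Within groups the correlation with ENSRNOG00000010867 was at most 0.45 among the 12901 genes compared. Counting error made up much of its spread in several groups and limits such correlations. Whether another gene tracks it closely can therefore not be told from these values. Over the deviations of all libraries from the means of their region, age, genotype and sex, the highest correlations were r = 0.45 for ENSRNOG00000057372 and r = 0.446 for ENSRNOG00000006978. Neither had the regional order of ENSRNOG00000010867. At 19 months ENSRNOG00000057372 had 16.1 ± 1.60 CPM in WT cerebellum, 14.0 ± 1.78 CPM in WT striatum and 12.9 ± 0.960 CPM in WT cortex. ENSRNOG00000006978 had 11.4 ± 0.783, 9.99 ± 1.64 and 6.88 ± 0.730 CPM in the same groups (SD, n = 10 each).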

How the data were processed

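Per the file headers, the authors deposited 2 tables on the reference Rat.B6.0. Which aligner, counter and annotation were used is not given in the sources used here. The first held estimated counts, deposited with 8.12% of cells not whole, which were rounded here; those of ENSRNOG00000010867 were whole in every library. The design had assumed counts. The second, to which the authors gave the name FPKM, summed to 1000000 in every library, so these deposited values were treated as TPM. Groups, sexes and animals came from the labels, and every column was matched to a sample.

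Comparisons were fitted on all genes with edgeR 4.0.16 in R 4.3.3 (TMM, filterByExpr, robust quasi-likelihood F test, sex as a covariate, or the animal as a block between regions), with calls at 0.05 after Benjamini-Hochberg adjustment, by scripts tested on simulated data. P-values measure spread between animals. Other settings were DESeq2 1.42.0, RLE size factors in edgeR, no filter or a mean CPM of at least 1, limma 3.58.1 on log2 TPM-scale values with 0.1 or 1 added, no sex term, all ages in 1 fit and a replicate block. Single libraries of 2 and 6 months and single WT libraries of 24 months were also left out in turn. Fits without libraries of outlying correlation (5 scaled median absolute deviations below the median), with a score of genes enriched at least 4-fold in another region, and without 2 striatum libraries were added after seeing the data. Replicate numbers were taken as names only, because in 0 of 10 comparisons did every same-numbered KI and WT pair have deviations correlated above 0.1. Pairs of different numbers were not compared, so pairing itself was not tested. A planned comparison of transcript lengths was not run, because the gene's relative length differed between libraries by at most 0.031%.

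The gene and the comparisons were chosen with earlier results of these data known. Other genes were named by a rule: the 2 of highest Pearson r by each of 2 measures of likeness, on log2 CPM with a prior count of 2. Marker lists could not be used without symbols.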

Additional observations from a re-analysis of the deposited data

Results flagged for a closer look

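In 16 groups of 4 to 10 libraries the highest and lowest level of ENSRNOG00000010867 were compared with the rest of the group, a check that chance alone flags in about 1 of 20 groups. In KI cortex at 24 months 1 male had 2.99 CPM, far above the other 6 libraries of the group. It is also among the libraries of outlying correlation. The same animal had 3.63 CPM in striatum and 0.816 CPM in cerebellum, inside the range of its groups. Its striatum library had the highest cortex score, 1.92, of the striatum libraries of 24 months. In WT striatum at 19 months 1 female had 4.13 CPM, far below the other 9 libraries, and its cerebellum was also the lowest WT library of that age.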

How the results depend on the processing

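For 54 results 462 alternative values were computed, of which 445 were counted as unchanged. For most results this meant the same direction and the same side of the threshold. The genotype differences of striatum and cerebellum have no threshold here. For them it meant a move smaller than the mean SD of log2 CPM within the groups compared. The log2 of length-scaled values plus 1 gave smaller genotype differences of -0.192 in striatum at 6 months, -0.257 in striatum at 24 months, and -0.486, -0.345 and -0.419 in cerebellum at 19 months, 24 months and their mean; the added constant is large beside these levels. WT cerebellum against cortex at 19 months turned to 0.0233 with 1 added and 0.0459 with 0.1 added. The male minus female difference in WT striatum turned to -0.00475 and -0.00677. The cause of these changes of sign was not tested. On length-scaled values 4 weak correlations changed sign: striatum with cortex in WT at 10 months to 0.104, striatum with cerebellum in KI at 19 months to -0.0544, and cortex with cerebellum at 19 months to -0.000961 in WT and 0.0596 in KI.

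Leaving out single libraries gave -0.15 to 0.0722 for WT striatum from 2 to 6 months (positive without the WT male at 6.87 CPM), -0.193 to 0.0877 for WT striatum from 10 to 24 months (positive without the female at 3.50 CPM), -0.0104 to 0.139 for WT cortex from 10 to 24 months (negative without the female at 2.87 CPM) and -0.139 to 0.0119 for male minus female in WT cerebellum (positive without the female at 2.80 CPM at 24 months). It gave -0.666 to -0.38 for the genotype difference in striatum and -1.08 to -0.824 in cerebellum at 24 months. At that age only WT libraries were left out in turn, so these ranges do not cover the KI libraries. WT cerebellum from 19 to 24 months ran from -0.445 to -0.0653.

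Same-numbered libraries deviated together in 24 of 68 pairs, so the numbers were taken as names only. With a replicate block the cortical differences were 0.0294, -0.443 (edgeR adjusted p = 0.578), -0.274 and, over the ages, -0.214, and none of them became a call. The striatal mean was then -0.419 and the cerebellar mean -1.12, for which no call is given. The gene had 37 to 118 reads a library in cortex and 17 to 100 in cerebellum, which limits the precision of single values.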
